A study of Homo sapiens with 18 samples.

Results

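Complexes II to V of the mitochondrial respiratory chain are built from subunits encoded in the nucleus and, except for complex II, from subunits encoded in mitochondrial DNA. The 38 genes described here were chosen by name as nuclear-encoded subunits and make up 38 of the 57905 gene rows of each library. They are 4 genes of complex II (SDHA, SDHB, SDHC and SDHD), 9 of complex III, 10 of complex IV and 15 of complex V, the ATP synthase. All 38 had enough reads to be tested in every comparison. The libraries held poly(A)-selected RNA of KMS12-BM and JJN3, established human multiple myeloma cell lines. Each line had 3 libraries with amiloride for 24 h (0.1 mM for KMS12-BM and 0.4 mM for JJN3), 3 with TG003 for 24 h (0.4 mM for both lines), and 3 labelled as untreated with DMSO, the solvent, with no duration given. Amiloride, a potassium-sparing diuretic, inhibits the epithelial sodium channel and sodium-proton exchange, and TG003 inhibits CLK kinases, which phosphorylate splicing factors. The amiloride dose differs between the lines, so dose and line cannot be told apart in the amiloride responses. Each line stands for itself and not for myeloma in general, and the labels do not state whether replicate libraries stem from different cultures, which limits every p-value to the spread among the libraries, possibly technical.

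Complex II oxidises succinate and hands the electrons to ubiquinone, complex III passes them from ubiquinol to cytochrome c, and complex IV uses them to reduce oxygen. Complexes III and IV pump protons as they work, and complex V lets the protons flow back through its membrane part, a ring of subunit c, to drive ATP synthesis in its catalytic head. The nuclear-encoded subunits are translated in the cytosol and imported, and complexes III, IV and V also need the subunits made on mitochondrial ribosomes. Many nuclear genes for these complexes are known to be regulated by NRF1, by GABP (an ETS factor also called NRF2) and by coactivators of the PGC-1 family. Genes of this kind are highly transcribed in most tissues and have left many processed pseudogenes, which are reverse-transcribed copies without introns.

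Each library had between 23707695 and 50570234 reads in genes. Of 8 plasma cell markers, all 8 reached 1 CPM (a gene's count as a share of the TMM-scaled library size, in units of 1e-06) in at least 1 library. Their summed level was 829.5 to 3258 CPM over the 18 libraries. T cell markers summed to at most 2.71 CPM and myeloid markers to at most 2.34 CPM. The stromal markers COL1A1, COL1A2 and COL3A1 summed to at most 1.497 CPM. PECAM1, the endothelial marker listed with them, was not matched to a gene row, so no endothelial marker was measured. The 4 epithelial markers summed to 20.1 to 189 CPM, of which only EPCAM reached 1 CPM in any library, and the 4 markers of B cells before the plasma stage summed to 1.34 to 74.5 CPM. The TG003 libraries stood apart in where their reads were placed. Processed pseudogenes held 0.106% to 0.130% of the reads in genes in the 6 TG003 libraries, against 4.50% to 5.63% in the 12 libraries with amiloride or DMSO. Alignments to more than 1 place made up 7.79% to 9.13% of the records in the TG003 libraries, against 13.3% to 17.4% in the other 12. Records outside any annotated feature made up 6.42% to 8.17% in the TG003 libraries, against 11.4% to 13.6% in the other 12. Records that fell ambiguously between genes made up 2.46% to 2.84%, against 1.65% to 2.35%. No library of DMSO or amiloride had the placement of the TG003 libraries. Placement and TG003 treatment therefore cannot be told apart, whether or not a gene has a near copy.

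Of the 38 genes, 23 had at least 1 near copy elsewhere in GRCh37/hg19, defined as a stretch with at least 90% identity over at least 50% of the coding sequence, and there were 61 such copies in all. Another 15 genes had none in a single uninterrupted stretch, although SDHA has 4 annotated pseudogenes that carry its name. The sequences of 3 genes are shown beside their closest copies because the coding sequences of these pairs differ at few bases. The rest of the transcripts was not compared. Capitals mark the bases at which gene and copy differ, each sequence is the coding strand, and positions are counted from 1 at the A of the start codon. COX6A1, a small subunit of complex IV, lies at chr12:120875893-120878540 on the plus strand, and its copy COX6A1P2, a processed pseudogene, lies at chr6:37012636-37012965 on the plus strand. The 330 bases differ at 4 places (T8C, C20T, C90A and T120C, with the gene's base first), all within the first 150 bases, which are printed.
COX6A1: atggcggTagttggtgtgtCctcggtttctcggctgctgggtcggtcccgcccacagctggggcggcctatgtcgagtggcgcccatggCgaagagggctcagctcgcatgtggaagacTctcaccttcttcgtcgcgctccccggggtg
COX6A1P2: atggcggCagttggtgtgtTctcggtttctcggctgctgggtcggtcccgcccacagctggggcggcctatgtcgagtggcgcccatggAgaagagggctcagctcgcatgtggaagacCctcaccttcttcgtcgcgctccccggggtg

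UQCRH encodes the hinge protein of complex III and lies at chr1:46769370-46782448 on the plus strand. Its copy UQCRHL, annotated as protein-coding, lies at chr1:16133869-16134144 on the minus strand, and the 276 bases differ at 4 places (G158A, G167A, G231A and G233A).
UQCRH: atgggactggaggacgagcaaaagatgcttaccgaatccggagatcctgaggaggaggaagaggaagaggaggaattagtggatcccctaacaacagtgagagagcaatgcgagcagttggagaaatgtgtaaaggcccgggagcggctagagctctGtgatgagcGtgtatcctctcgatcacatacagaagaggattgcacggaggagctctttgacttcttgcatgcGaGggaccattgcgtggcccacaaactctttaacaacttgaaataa
UQCRHL: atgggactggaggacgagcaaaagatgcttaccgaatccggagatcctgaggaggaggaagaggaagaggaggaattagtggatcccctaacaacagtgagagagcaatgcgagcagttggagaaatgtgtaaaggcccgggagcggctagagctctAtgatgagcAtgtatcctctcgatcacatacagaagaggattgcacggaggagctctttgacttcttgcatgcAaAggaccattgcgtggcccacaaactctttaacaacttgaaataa

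ATP5F1E encodes the epsilon subunit of the ATP synthase head and lies at chr20:57600530-57607400 on the minus strand. The copy ATP5F1EP2, a processed pseudogene, lies at chr13:28519397-28519552 on the plus strand, and the 156 bases differ at 6 places (C65T, T105C, G106A, G108A, G122A and A125G).
ATP5F1E: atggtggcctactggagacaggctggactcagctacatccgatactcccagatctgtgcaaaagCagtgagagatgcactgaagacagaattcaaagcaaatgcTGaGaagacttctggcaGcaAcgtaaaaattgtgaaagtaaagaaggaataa
ATP5F1EP2: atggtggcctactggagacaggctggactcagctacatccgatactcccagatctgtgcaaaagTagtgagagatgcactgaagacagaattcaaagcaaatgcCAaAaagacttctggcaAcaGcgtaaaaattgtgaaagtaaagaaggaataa

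The spread among replicate libraries differed between groups and genes. The median coefficient of variation of the 38 genes over 3 libraries was 12.6% with amiloride, 3.8% with TG003 and 7.76% with DMSO in KMS12-BM, beside 8.9%, 5.47% and 6.61% over the 7982 genes with a mean of at least 20 CPM. In JJN3 it was 10.2% with amiloride, 5.84% with TG003 and 8.67% with DMSO, beside 7.26%, 5.58% and 6.29%. A level at least 2 times as high in the highest as in the lowest library of a group was found for 2, 0 and 3 of the 38 genes with amiloride, TG003 and DMSO in KMS12-BM, and for 3, 0 and 4 in JJN3. Over the 7982 genes the shares were 3.21%, 3.03% and 1.98% in KMS12-BM, and 0.94%, 1.98% and 0.915% in JJN3. ATP5PO, which joins the stalk to the head, had the widest spread, with 194, 204 and 194 CPM with TG003 in JJN3, against 189, 247 and 58.5 CPM with DMSO. It was called in none of the 4 drug comparisons, and 63.8% of its exon bases are shared with another gene on the same strand. Exon bases were also shared in ATP5MF (37.25%), COX8A (35.4%), COX6A1 (32.6%), SDHD (23.8%), UQCR11 (18.1%) and ATP5MC3 (3.56%). The part of this overlap in the values was not tested.

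The first comparison asked how the subunit genes responded to amiloride in KMS12-BM. In edgeR's quasi-likelihood test, 15 of the 38 genes fell and 2 rose at a Benjamini-Hochberg adjusted p under 0.05, and 21 were not called. Among all 15765 genes tested, 35.2% were called lower and 33.5% higher. A call in either direction came to 44.7% of the members and to 68.7% of all genes, so the members were not called more often than genes at large. Their median log2 fold change was -0.19, beside -0.02 for all genes, and their fold changes ran from -1.76 to 0.48. The CPM ranges of amiloride and DMSO did not overlap for 17 members, and for 71.7% of all genes.

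In complex II, SDHA, the flavoprotein that holds the succinate-oxidising site, was the only one of the 4 genes called as counted with amiloride in KMS12-BM. Its level was 92.0, 127 and 105 CPM in the 3 amiloride libraries, against 226, 235 and 254 CPM in the 3 DMSO libraries. Every amiloride library lay below every DMSO library, and the log2 fold change was -1.14 ± 0.11 (SE, adjusted p = 2.31e-06), a 2.2-fold lower level. SDHB, the iron-sulfur subunit, had 74.9, 123 and 115 CPM with amiloride, against 102, 88.5 and 99.8 CPM with DMSO. These ranges overlapped, and SDHB was not called (0.10 ± 0.15, adjusted p = 0.553). SDHC and SDHD were called lower with their near copies added (-0.19, adjusted p = 0.0285, and -0.15, adjusted p = 0.0456). Both were also called lower with a trend on GC content removed (-0.26, adjusted p = 0.016, and -0.498, adjusted p = 1.08e-05). With a trend on transcript length removed neither was called (adjusted p = 0.704 and 0.845).

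Complex III had 5 of 9 genes lower with amiloride in KMS12-BM, and the other 4 were not called. The core proteins UQCRC1 and UQCRC2, which face the matrix and carry no redox centre, had the largest falls. UQCRC1 had 79.4, 90.2 and 70.9 CPM with amiloride, against 211, 187 and 202 CPM with DMSO (log2 fold change -1.32 ± 0.09, adjusted p = 3.37e-07). UQCRC2 had 69.3, 120 and 77.1 CPM with amiloride, against 215, 281 and 311 CPM with DMSO (-1.598 ± 0.20, adjusted p = 5.13e-05). In both genes the groups were apart, and the DMSO libraries of UQCRC2 spread more widely than those of UQCRC1. Of the subunits that carry the redox centres, the Rieske iron-sulfur protein UQCRFS1 had a log2 fold change of -0.29 (adjusted p = 0.00276). Cytochrome c1, encoded by CYC1, was not called (-0.26 ± 0.13, adjusted p = 0.107), but was called higher with a trend on GC content removed (0.355, adjusted p = 0.0293).

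Complex IV was divided, with 2 of 10 genes lower, 1 higher and 7 not called with amiloride in KMS12-BM. COX8A, the smallest subunit, had 60.9, 66.2 and 59.5 CPM with amiloride, against 162, 119 and 136 CPM with DMSO. All amiloride libraries were below all DMSO libraries (-1.16 ± 0.11, adjusted p = 2.41e-06). COX4I1, the common isoform of subunit 4, went the other way, with 235, 274 and 306 CPM with amiloride, against 185, 216 and 197 CPM with DMSO (0.45 ± 0.10, adjusted p = 0.00164). COX5A, which binds next to subunit 4, ranged from 91.0 to 204 CPM with amiloride and from 92.0 to 227 CPM with DMSO. The spread of COX5A among replicates covered the difference (0.08 ± 0.35, adjusted p = 0.865).

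Complex V had 7 of 15 genes lower and 1 higher with amiloride in KMS12-BM. ATP5MC1, ATP5MC2 and ATP5MC3 encode the same mature subunit c behind different import sequences. ATP5MC1 had 119, 193 and 148 CPM with amiloride, against 538, 515 and 502 CPM with DMSO, the largest fall of the 38 genes (-1.76 ± 0.15, adjusted p = 1.67e-06). ATP5MC2 had 145, 130 and 142 CPM with amiloride, against 304, 287 and 325 CPM with DMSO (-1.14 ± 0.07, adjusted p = 1.71e-07). The third gene, ATP5MC3, was not called (-0.17 ± 0.12, adjusted p = 0.206), but was called lower with a trend on GC content removed (-0.55, adjusted p = 0.00424). Whether all the genes for the one protein passed thus depended on this setting. In the catalytic head, ATP5F1A, the alpha subunit, had 706, 694 and 791 CPM with amiloride, against 875, 1077 and 985 CPM with DMSO (-0.42 ± 0.09, adjusted p = 0.000927). ATP5F1B, the beta subunit with the catalytic sites, fell by 0.30 (adjusted p = 0.00164), a call that was lost when a trend on transcript length was removed (-0.13, adjusted p = 0.119). ATP5ME, the membrane subunit e, was the 1 gene of complex V that was higher. It had 92.0, 55.1 and 80.9 CPM with amiloride, against 53.1, 56.6 and 53.6 CPM with DMSO. The amiloride library with 55.1 CPM lay within the DMSO range, the log2 fold change was 0.48 ± 0.15 (adjusted p = 0.0144), and the adjusted p was 0.053 without amiloride library 1. With a trend on transcript length removed the call of ATP5ME, whose transcript of 303 bases is the shortest of the 38, was lost (0.19, adjusted p = 0.261).

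**Figure D1:**
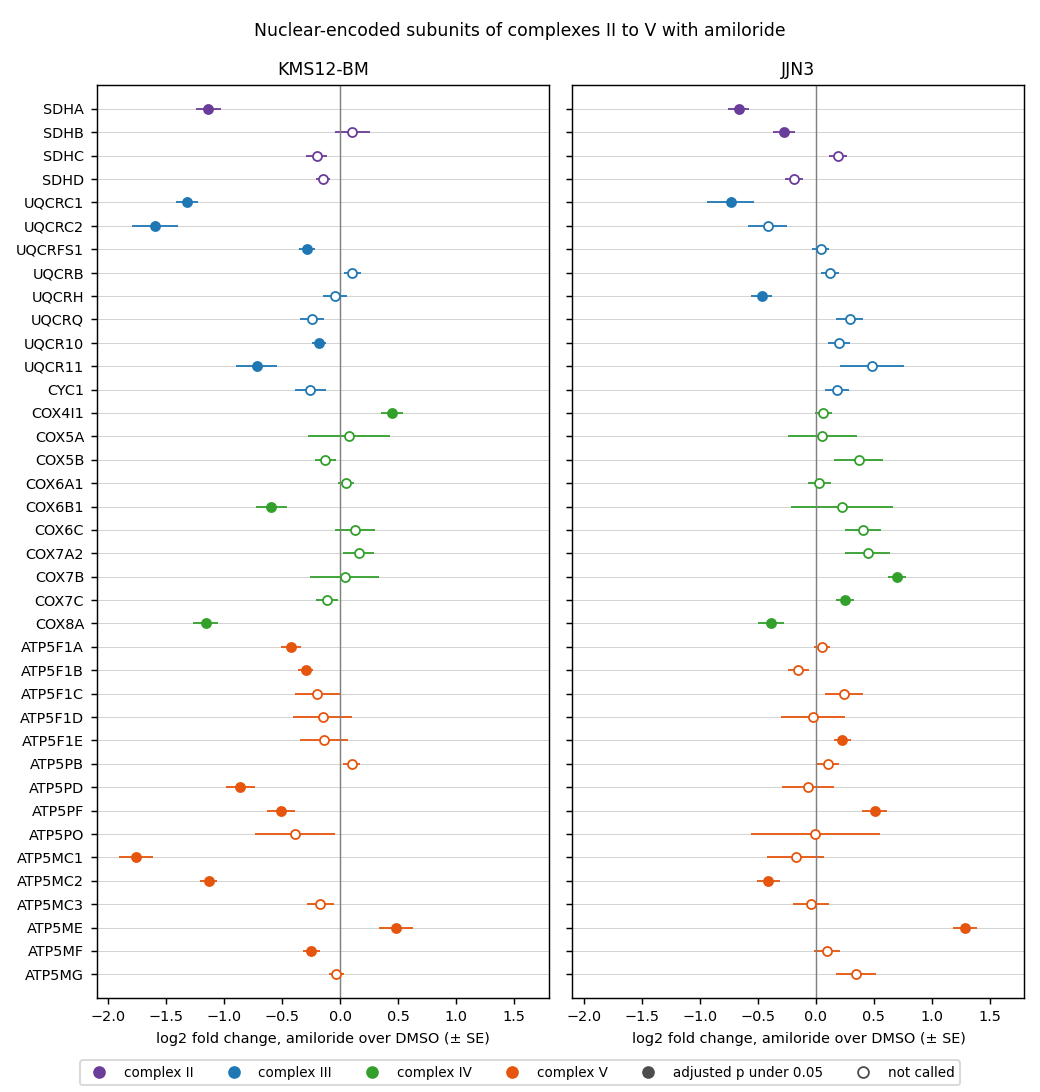
The log2 fold change of each of the 38 genes with amiloride over DMSO (x axis, ± SE) is plotted for KMS12-BM on the left and JJN3 on the right, with genes in rows coloured by complex and filled circles for an adjusted p under 0.05. KMS12-BM had 15 filled circles below 0 and 2 above, and JJN3 had 6 below and 5 above.

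In JJN3, which received the higher amiloride dose, 6 of the 38 genes fell, 5 rose and 27 were not called. Over the 15704 genes tested in this line, 23.9% were called lower, 19.7% higher and 43.6% either way, and 28.9% of the members were called. The median log2 fold change of the members was 0.08, beside -0.03 for all genes. The ranges of the groups were apart for 14 members, and for 51.7% of all genes.

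SDHA fell in JJN3 too, with 318, 309 and 270 CPM with amiloride, against 510, 438 and 469 CPM with DMSO (-0.67 ± 0.09, adjusted p = 7.56e-05). UQCRC1 had 179, 209 and 109 CPM with amiloride, against 276, 255 and 290 CPM with DMSO. Its groups did not overlap, but the amiloride libraries differed among themselves by nearly as much as the groups did (-0.74 ± 0.20, adjusted p = 0.0169), and the adjusted p was 0.0519 without DMSO library 3. UQCRH had 166, 185 and 142 CPM with amiloride, against 206, 244 and 228 CPM with DMSO (-0.47 ± 0.09, adjusted p = 0.00123). ATP5MC2 had 186, 183 and 180 CPM with amiloride, against 286, 221 and 219 CPM with DMSO (-0.41 ± 0.10, adjusted p = 0.00475). COX8A fell by 0.39 (adjusted p = 0.0163), with an adjusted p of up to 0.0632 when 1 library was left out, and lost its call without DMSO library 1 or without amiloride library 2 or 3. SDHB fell by 0.28 (adjusted p = 0.0314) and lost its call with the length trend removed (adjusted p = 0.0692) and without DMSO library 2 or without amiloride library 1 or 3, with an adjusted p of up to 0.172.

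The rises in JJN3 were in complexes IV and V. ATP5ME had 156, 144 and 127 CPM with amiloride, against 62.8, 59.9 and 51.3 CPM with DMSO, so that every amiloride library was above every DMSO library (1.29 ± 0.11, adjusted p = 4.27e-06). COX7B, a small subunit of complex IV, had 119, 122 and 110 CPM with amiloride, against 74.0, 72.8 and 67.8 CPM with DMSO (0.70 ± 0.07, adjusted p = 1.88e-05). ATP5PF, coupling factor 6 of the stalk that holds the head still, had 176, 178 and 160 CPM with amiloride, against 110, 146 and 104 CPM with DMSO (0.51 ± 0.11, adjusted p = 0.00224). These 3 genes were apart from DMSO in all libraries. ATP5F1E was higher by 0.23 ± 0.07 (adjusted p = 0.0218), and lost its call without DMSO library 1 or 3 or amiloride library 2 (adjusted p of up to 0.0736). COX7C was higher by 0.25 ± 0.08 (adjusted p = 0.0189), but its pseudogenes held 15.01% of the reads of gene and pseudogenes with amiloride and 30.5% with DMSO. With the pseudogenes added to the gene the log2 fold change of COX7C was -0.02 (adjusted p = 0.809).

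Set side by side, 4 genes were called lower with amiloride in both lines: SDHA, UQCRC1, COX8A and ATP5MC2. They made up 4 of the 15 genes lower in KMS12-BM and 4 of the 6 lower in JJN3. Among all genes tested, 35.2% were called lower in KMS12-BM and 23.9% in JJN3. The share of all genes called in both lines was not computed, so the counts over both lines stand without a background. ATP5ME was the 1 gene higher in both lines, where its KMS12-BM call was the one lost with the length trend removed, and ATP5PF was the 1 gene called in opposite directions. In KMS12-BM, ATP5PF had 105, 102 and 76.0 CPM with amiloride, against 149, 118 and 136 CPM with DMSO (-0.51 ± 0.12, adjusted p = 0.00305). Of the remaining genes, 16 were called in neither line.

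Whether amiloride acted unequally in both lines (KMS12-BM minus JJN3) was tested as an interaction over all 18 libraries. It was negative for 17 of the 38 genes and positive for 2 at an adjusted p under 0.05, among 21.6% lower and 21.6% higher calls over 17772 genes. The members' median was -0.39, beside 0.01 for all genes. All 15 genes of complex V had a value below 0, from -1.59 to -0.014, of which 6 were called. Complex III had 7 called below 0 and 1 above. Of all 17772 genes, 8755 had a value below 0. ATP5MC1 differed most (-1.59 ± 0.30, adjusted p = 0.000564), and in JJN3 its amiloride libraries had 82.5, 99.5 and 133 CPM, against 80.0, 152 and 123 CPM with DMSO. These JJN3 ranges overlapped. UQCR11 (-1.22 ± 0.35, adjusted p = 0.0104), UQCRC2 (-1.19 ± 0.29, adjusted p = 0.0041) and ATP5PF (-1.02 ± 0.18, adjusted p = 9.12e-05) followed. COX4I1 (0.37 ± 0.12, adjusted p = 0.0173) and UQCRH (0.42 ± 0.14, adjusted p = 0.0217) were the 2 genes above 0. Both lost the call in some fits with 1 library left out, 2 of 12 for COX4I1 (adjusted p of up to 0.0667) and 4 of 12 for UQCRH (up to 0.0907), and UQCRH lost it with a trend on GC content (adjusted p = 0.0885) or on transcript length (adjusted p = 0.0773) removed. ATP5PD lost its call in 8 of the 12 fits (adjusted p of up to 0.071).

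**Figure D2:**
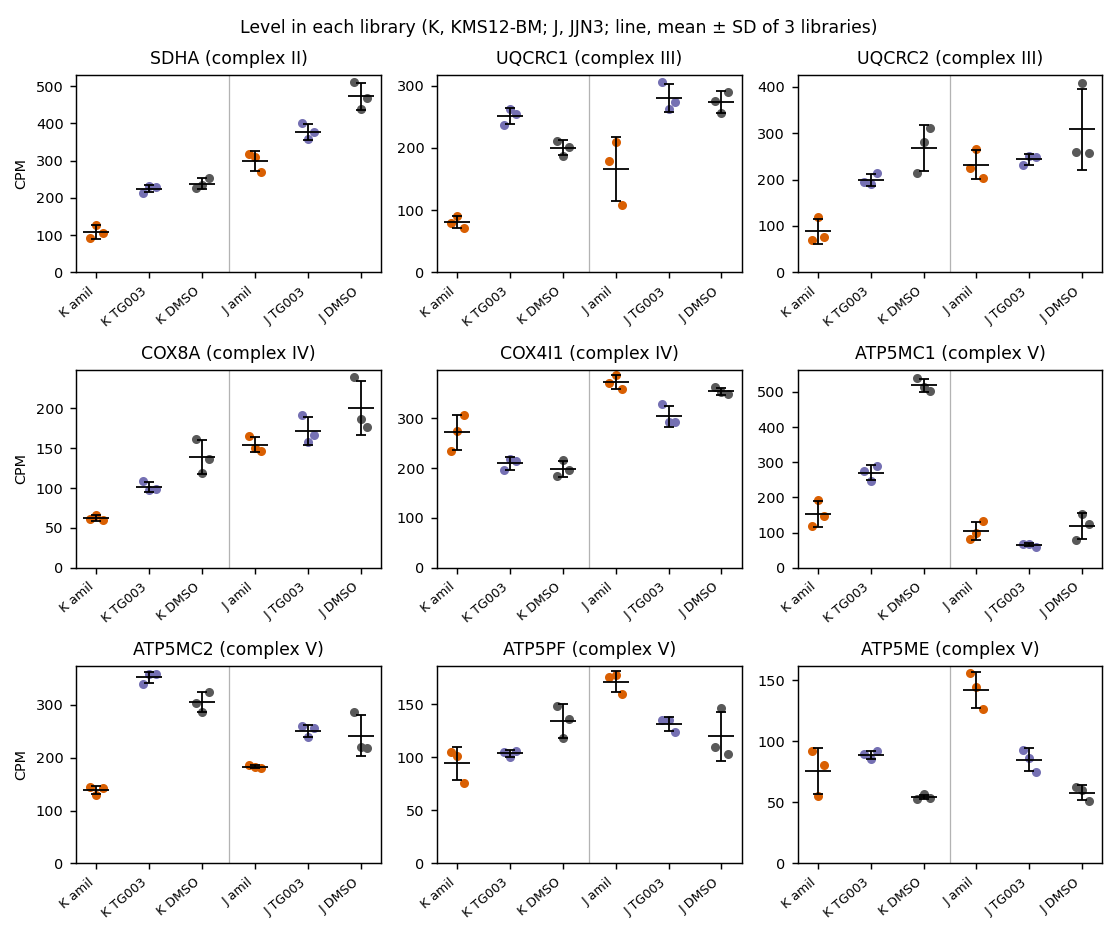
The level in CPM (y axis, from 0) of 9 named genes is shown in each of the 18 libraries, as points grouped by line and treatment, with the mean and SD of 3 libraries. ATP5MC1 stands at 502 to 538 CPM in KMS12-BM with DMSO and at 119 to 193 CPM with amiloride, while ATP5ME is higher with amiloride than with DMSO in all 3 JJN3 libraries.

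The subunits of the same complexes that are encoded in mitochondrial DNA gave a different picture. With amiloride, all 6 (MT-CYB of complex III, MT-CO1, MT-CO2 and MT-CO3 of complex IV, and MT-ATP6 and MT-ATP8 of complex V) fell in both lines. Their median log2 fold change was -5.89 in KMS12-BM and -2.03 in JJN3. Their summed level was 569, 284 and 411 CPM in the amiloride libraries of KMS12-BM, against 28154, 25371 and 26610 CPM in the DMSO libraries. In JJN3 the sum was 1930, 2342 and 2796 CPM with amiloride, against 13539, 15719 and 11999 CPM with DMSO. The 38 nuclear-encoded genes together had 7142, 7819 and 7064 CPM with amiloride in KMS12-BM, against 8901, 9335 and 9566 CPM with DMSO. In JJN3 they had 9920, 10888 and 9049 CPM with amiloride, against 10098, 9999.5 and 9190 CPM with DMSO. The nuclear sums were apart in KMS12-BM and overlapped in JJN3. With TG003, 0 of the 6 mitochondrial genes were called in either line by edgeR or by DESeq2, 0 had an unadjusted p under 0.05 with either tool, and their log2 fold changes in edgeR ran from -0.34 to 0.04.

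**Figure D3:**
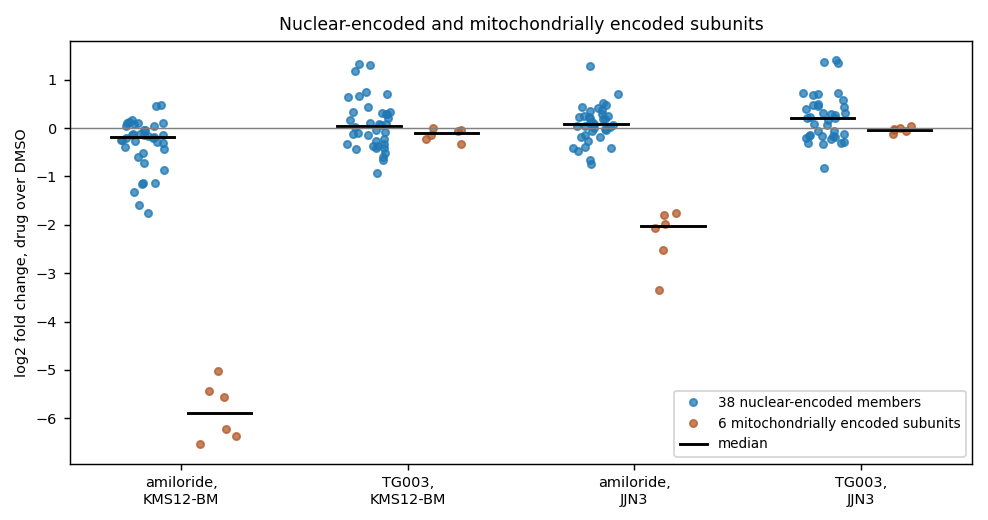
Log2 fold changes of drug over DMSO (y axis) are plotted for the 38 nuclear-encoded genes (blue) and the 6 mitochondrially encoded subunits (brown) in 4 comparisons, with black lines for the medians. With amiloride the brown medians lie at -5.89 in KMS12-BM and -2.03 in JJN3, while the blue medians lie at -0.19 and 0.08.

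Lists of related genes were set beside the members. Of 49 tested assembly factors of complexes II to V, 22 fell and 15 rose with amiloride in KMS12-BM (median -0.14; 75.5% called, beside 68.7% of all genes). In JJN3, 10 fell and 16 rose (median 0.10; 53.1% called, beside 43.6% of all genes). TMEM177, which acts in the maturation of COX2, had the smallest adjusted p among the falls in KMS12-BM, with 3.20 ± 1.07 CPM with amiloride and 32.5 ± 1.66 CPM with DMSO (SD, n = 3 each; log2 fold change -3.33, adjusted p = 7.42e-08 in edgeR). UQCC5 and COX20 fell by 1.45 and 1.22, whereas COA8, TMEM242 and UQCC1 rose by 1.599, 1.21 and 0.94. In JJN3, ATPAF2, which helps assemble the ATP synthase head, fell by 0.75, SCO1 and UQCC2 fell by 0.60 and 0.54, and UQCC1, HIGD1A and COX16 rose by 0.59, 0.51 and 0.47. UQCC1, an assembly factor of complex III, was thus called higher in both lines.

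Among 15 tested transcription regulators of respiratory genes, 9 rose and 1 fell with amiloride in KMS12-BM, or 66.7% called, beside 33.5% of all genes higher, 35.2% lower and 68.7% either way. YY1 had 850 ± 67.1 CPM with amiloride and 376 ± 7.22 CPM with DMSO (SD, n = 3 each; 1.18 in log2, adjusted p = 1.38e-07 in edgeR), and GABPA, the DNA-binding subunit of GABP, rose by 0.67. TFAM, which packages mitochondrial DNA and acts in its transcription, rose by 0.63, and MYC fell by 1.08. In JJN3, 6 of 16 rose and 2 fell, beside 19.7% of all genes higher and 23.9% lower. YY1 rose by 0.52, TFB2M by 0.44 and GABPA by 0.38, while MYC fell by 0.63 and GABPB1 by 0.39. Of other subunits and isoforms, DMAC2L fell by 2.28 in KMS12-BM and by 0.65 in JJN3. CYCS, cytochrome c itself, had 360 ± 13.0 CPM with amiloride in KMS12-BM and 490 ± 5.26 CPM with DMSO (SD, n = 3 each; -0.45 in log2, adjusted p = 0.000335 in edgeR). NDUFA4L2 and ATP5MJ rose by 1.87 and 0.62 in KMS12-BM, ATP5IF1, the ATPase inhibitor, rose by 0.73 in JJN3, and the copy UQCRHL fell by 0.81 in JJN3.

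The promoters of the genes that moved the same way with amiloride in both lines are shown with the motifs found in them. Promoter sequence came from a RefSeq table for GRCh38.p14 with 250 bases before and 50 after each gene start, which held 35 of the 38 genes. The motif CCGGAAGT (GABP and other ETS factors) was found on either strand in 9 of 35 promoters, or 25.7%, and in 4.14% of all 35116 promoters in the table. The NRF1 motif, GCGCA and GCGC with any 1 base between them, was found on either strand in 9, or 25.7%, beside 5.78% of all promoters. ATGGCGGC (YY1) was found in 3, or 8.57%, beside 3% of all, and GGGGCGGGG (Sp1) in 4, or 11.4%, beside 15.7%. These matches did not overlap one another. A match is a description of the letters and not a bound site. In the lines below the bases before the gene start are given in the direction of the gene, with GABP/ETS and NRF1 motifs in capitals. SDHA (chr5:218070-218319, plus strand) held 4 NRF1 motifs. ATP5ME (chr4:674277-674526, minus strand) held 2, of which the one nearer the gene start was on the opposite strand. UQCRC1 (chr3:48609647-48609766, minus strand) held 1 NRF1 motif, and COX8A (chr11:63974500-63974619, plus strand) held 1 GABP/ETS motif, both on the opposite strand. ATP5MC2 held neither motif in this window.
SDHA: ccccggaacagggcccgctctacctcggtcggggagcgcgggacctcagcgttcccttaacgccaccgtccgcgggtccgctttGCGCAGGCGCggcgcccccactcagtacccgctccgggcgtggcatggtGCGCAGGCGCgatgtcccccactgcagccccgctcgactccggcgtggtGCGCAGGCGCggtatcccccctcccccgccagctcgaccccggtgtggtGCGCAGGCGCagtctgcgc
UQCRC1: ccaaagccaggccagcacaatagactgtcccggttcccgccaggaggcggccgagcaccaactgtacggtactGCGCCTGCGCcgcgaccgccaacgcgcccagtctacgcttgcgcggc
COX8A: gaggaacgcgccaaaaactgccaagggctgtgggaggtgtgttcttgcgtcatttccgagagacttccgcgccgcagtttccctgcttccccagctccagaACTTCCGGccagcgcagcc
ATP5ME: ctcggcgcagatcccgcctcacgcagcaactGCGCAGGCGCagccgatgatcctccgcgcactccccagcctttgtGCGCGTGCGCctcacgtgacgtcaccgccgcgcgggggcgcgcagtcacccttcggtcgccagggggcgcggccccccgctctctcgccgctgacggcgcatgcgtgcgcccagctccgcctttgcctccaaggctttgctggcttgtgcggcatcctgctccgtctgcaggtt

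With TG003 the counts of calls were even in KMS12-BM, where 10 genes rose, 10 fell and 18 were not called, among 26.9% of all genes called higher, 31.7% lower and 58.6% either way. In JJN3, 11 rose, 6 fell and 21 were not called, among 26.2% higher, 32.1% lower and 58.3% either way. With a trend on transcript length removed the counts were 14 higher and 7 lower in KMS12-BM, and 17 higher and 4 lower in JJN3. The members' median log2 fold change was 0.04 in KMS12-BM and 0.20 in JJN3, beside -0.03 and -0.04 for all genes. Groups were apart for 25 members in KMS12-BM and for 23 in JJN3, beside 68.6% and 66.3% of all genes. The amiloride and TG003 comparisons of a line share their DMSO libraries. All 8 plasma cell markers were also called lower with TG003 in both lines, with a median log2 fold change of -1.21 in KMS12-BM and -0.74 in JJN3, and their part in the members' values was not tested.

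The largest rises with TG003 were in genes with near copies. COX6A1 had 253, 276 and 263 CPM with TG003 in KMS12-BM, against 113, 105 and 102 CPM with DMSO (1.32 ± 0.07, adjusted p = 1.92e-08). In JJN3 it had 184, 149 and 147 CPM with TG003, against 68.7, 60.3 and 60.3 CPM with DMSO (1.37 ± 0.10, adjusted p = 5.18e-08). All TG003 libraries were thus above all DMSO libraries. The pseudogenes of COX6A1, however, held 1.001% of the reads of gene and pseudogenes with TG003 and 59.7% with DMSO in KMS12-BM, and 1.27% and 60.5% in JJN3. Gene and pseudogenes together had 267 ± 11.4 CPM with TG003 and 264 ± 13.7 CPM with DMSO in KMS12-BM (SD, n = 3 each). With near copies added to the genes (pseudogene rows that hold a near copy or carry the gene's name, and UQCRHL), the log2 fold change of COX6A1 was 0.02 in KMS12-BM (adjusted p = 0.806) and 0.05 in JJN3 (adjusted p = 0.701).

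The direction of UQCRH depended on how its reads were counted. The gene alone had 131, 134 and 129 CPM with TG003 in KMS12-BM, against 60.9, 60.3 and 53.3 CPM with DMSO (1.18 ± 0.10, adjusted p = 1.73e-06). In JJN3 it had 368, 375 and 363 CPM with TG003, against 206, 244 and 228 CPM with DMSO (0.74 ± 0.09, adjusted p = 1.43e-05). Its copy UQCRHL averaged 0.167 ± 0.049 CPM with TG003 and 49.1 ± 6.11 CPM with DMSO in KMS12-BM, and 0.112 ± 0.085 CPM with TG003 and 259 ± 36.3 CPM with DMSO in JJN3 (SD, n = 3 each). UQCRHL was thus near 0 in all TG003 libraries. With near copies added, UQCRH was higher by 0.30 in KMS12-BM (adjusted p = 0.00145) and lower in JJN3 (-0.36, adjusted p = 0.0069), which turns its direction in JJN3. With the length trend removed in place of adding copies, UQCRH had 1.77 in KMS12-BM and 1.45 in JJN3, and COX6A1 had 1.91 and 2.08.

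SDHC, a membrane anchor of complex II, kept a rise after the copies were added. It had 158, 171 and 173 CPM with TG003 in KMS12-BM, against 60.2, 71.3 and 73.4 CPM with DMSO (1.30 ± 0.09, adjusted p = 3.19e-07). In JJN3 it had 261, 247 and 233 CPM with TG003, against 96.2, 102 and 86.5 CPM with DMSO (1.41 ± 0.08, adjusted p = 3.06e-09). With near copies added the log2 fold change of SDHC was 0.94 in KMS12-BM (adjusted p = 4.9e-07) and 1.03 in JJN3 (adjusted p = 6.26e-08). ATP5F1E had 233, 258 and 224 CPM with TG003 in JJN3, against 93.7, 100.3 and 94.3 CPM with DMSO (1.34 ± 0.07, adjusted p = 2.88e-09). Its pseudogenes held 0.0258% of the reads with TG003 and 43.2% with DMSO there, and with the copy added the rise was 0.53 (adjusted p = 2.59e-05). COX7C rose by 0.67 in KMS12-BM and by 0.73 in JJN3, and by 0.21 in each line with near copies added (adjusted p = 0.0177 in KMS12-BM and 0.0258 in JJN3). ATP5F1C, the central shaft subunit gamma, rose by 0.70 in JJN3, with or without copies (adjusted p = 0.0047 and, with copies, 0.00475). ATP5PD rose by 0.75 in KMS12-BM (0.53 with near copies added, adjusted p = 0.000645).

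**Figure D4:**
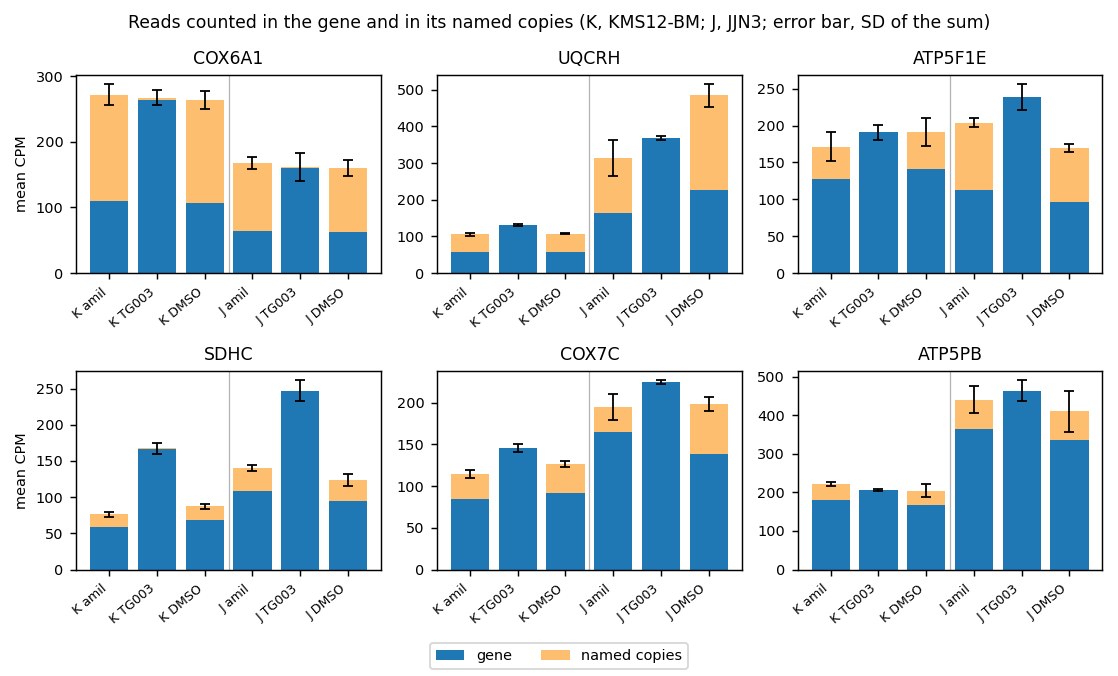
Mean CPM counted in the gene (blue) and in its named pseudogenes, with UQCRHL for UQCRH (yellow), is stacked for 6 genes in the 6 groups, with error bars for the SD of the sum over 3 libraries. The yellow part is close to 0 in both TG003 groups and holds 59.7% of the reads of COX6A1 in KMS12-BM with DMSO.

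Over all 38 genes, adding near copies kept 7 of the 10 rises in KMS12-BM and 8 of the 11 in JJN3. COX6A1 and ATP5PB lost the call in both lines, ATP5MC2 lost it in KMS12-BM and UQCRH in JJN3. All 10 falls in KMS12-BM and all 6 in JJN3 were kept. ATP5MG was added to the falls in KMS12-BM, and SDHD and UQCRH in JJN3. The 23 genes with a near copy had 8 rises and 6 falls in KMS12-BM (median 0.21) and 9 rises and 2 falls in JJN3 (median 0.31). The 15 genes without one had 2 rises and 4 falls in each line, with medians of -0.08 and -0.14. The part that read placement had in the rises beyond the named copies was not tested.

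Among genes without a near copy, ATP5ME rose in both lines. It had 89.6, 85.5 and 91.7 CPM with TG003 in KMS12-BM, against 53.1, 56.6 and 53.6 CPM with DMSO (0.71 ± 0.15, adjusted p = 0.00194). In JJN3 it had 93.3, 86.8 and 74.8 CPM with TG003, against 62.8, 59.9 and 51.3 CPM with DMSO (0.58 ± 0.11, adjusted p = 0.000441). ATP5ME was thus called higher with both drugs in both lines, in comparisons that share the DMSO libraries of a line. These values depended on the length trend: with it removed, the TG003 log2 fold change was 2.43 in KMS12-BM and 2.57 in JJN3, and the amiloride call in KMS12-BM was lost. UQCRC1, which fell with amiloride, rose by 0.33 with TG003 in KMS12-BM (adjusted p = 0.00865) and was not called in JJN3 (0.07 ± 0.20, adjusted p = 0.795).

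The falls with TG003 were smaller than the largest rises. ATP5MC1 had 276, 246 and 289 CPM with TG003 in KMS12-BM, against 538, 515 and 502 CPM with DMSO (-0.93 ± 0.14, adjusted p = 0.000249). In JJN3 it had 67.8, 67.9 and 60.1 CPM with TG003, against 80.0, 152 and 123 CPM with DMSO (-0.83 ± 0.25, adjusted p = 0.0199). The JJN3 call of ATP5MC1 was lost with a trend on transcript length removed (-0.46, adjusted p = 0.133) and in 4 of 6 fits without 1 library (adjusted p of up to 0.0642). ATP5F1B had 1165, 1177 and 1213 CPM with TG003 in KMS12-BM, against 1730, 1871 and 1808 CPM with DMSO (-0.60 ± 0.07, adjusted p = 1.39e-05), and fell by 0.31 in JJN3 (adjusted p = 0.0111). CYC1 fell by 0.52 in KMS12-BM (adjusted p = 0.00639) and by 0.32 in JJN3 (adjusted p = 0.0153; up to 0.0718 without 1 library). UQCRFS1 was the other gene lower in both lines (-0.37, adjusted p = 0.00072 in KMS12-BM; -0.23, adjusted p = 0.0158 in JJN3), and its JJN3 call was lost without DMSO library 1 or TG003 library 2 (adjusted p of up to 0.0681). UQCRQ, a small subunit of complex III, fell by 0.65 in KMS12-BM (adjusted p = 0.000251). COX8A fell by 0.44 in KMS12-BM (adjusted p = 0.004), but rose by 0.29 there with a trend on transcript length removed (adjusted p = 0.038). ATP5MF and ATP5PF, also among the 10 falls in KMS12-BM, turned in the same way. ATP5MF had -0.26 (adjusted p = 0.0106) and 0.68 with the trend removed (adjusted p = 0.000324), and ATP5PF had -0.37 (adjusted p = 0.0231) and 0.26 with it removed (adjusted p = 0.0705). In JJN3, SDHA fell by 0.29 (adjusted p = 0.0111, and 0.0518 without TG003 library 2) and COX4I1 by 0.19 (adjusted p = 0.0357, up to 0.141 without 1 library, and 0.789 with the length trend removed). ATP5F1A fell by 0.42 in KMS12-BM (adjusted p = 0.00144) and was not called in JJN3 (-0.16 ± 0.07, adjusted p = 0.0637).

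**Figure D5:**
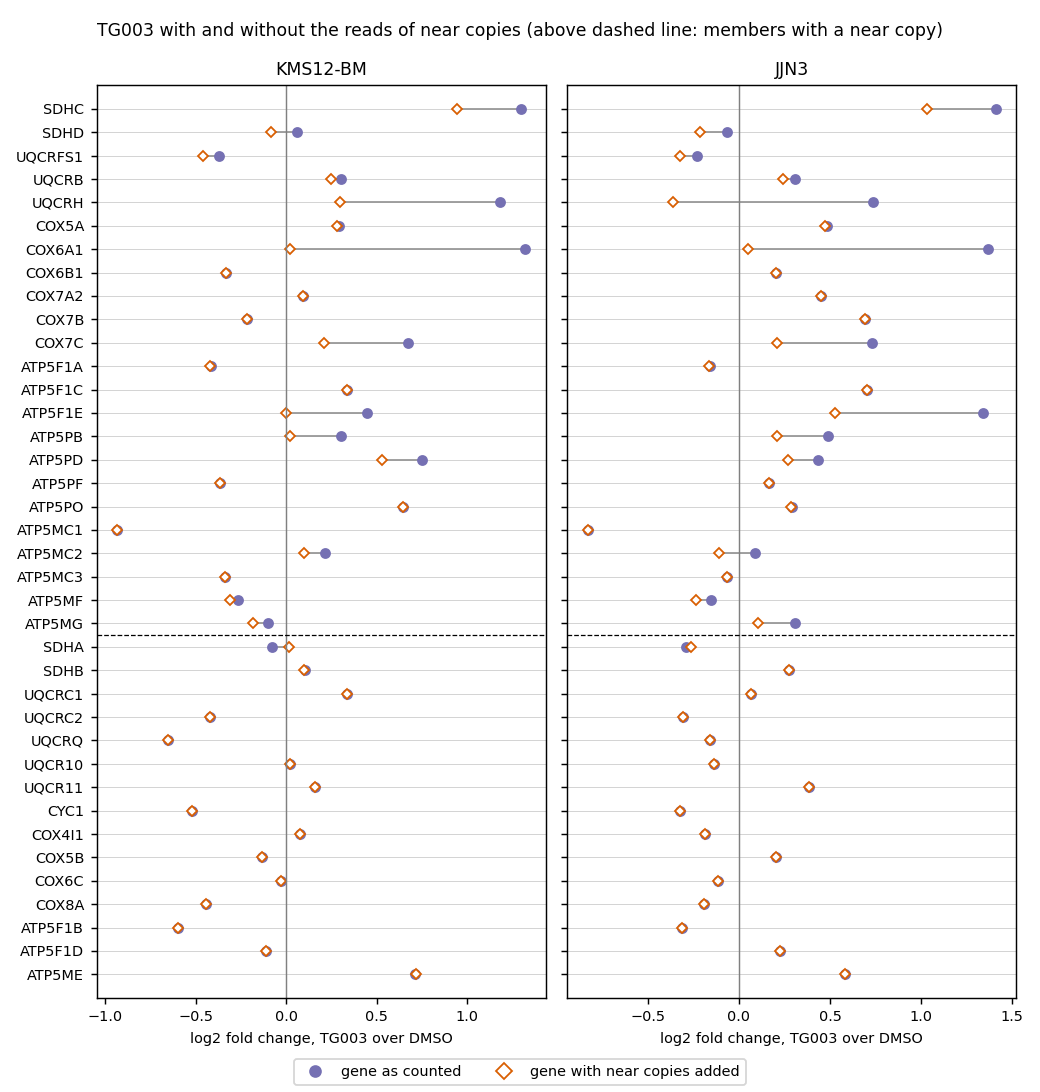
Log2 fold changes of TG003 over DMSO (x axis) are plotted for the 38 genes as counted (circles) and with near copies added (diamonds), for KMS12-BM on the left and JJN3 on the right, with the 23 genes that have a near copy above the dashed line. In KMS12-BM the circle of COX6A1 lies at 1.32 and its diamond at 0.02, UQCRH lies on opposite sides of 0 in JJN3, and below the dashed line SDHA in KMS12-BM is the gene whose circle (-0.08) and diamond (0.01) are most apart.

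The difference between the lines in the TG003 response was called for 2 genes, beside 7.13% of all genes called higher and 6.8% lower. It was positive for UQCRH (0.47 ± 0.14, adjusted p = 0.0297) and negative for ATP5F1E (-0.87 ± 0.24, adjusted p = 0.0206), both of which have a near copy with reads in the DMSO libraries. Leaving out 1 library took the call from UQCRH in 7 of 12 fits (adjusted p of up to 0.086) and from ATP5F1E in 4 (up to 0.0545), and UQCRH also lost it with the length trend removed (adjusted p = 0.0713).

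Among the related genes with TG003, NDUFA4, a subunit found in complex IV, rose by 1.08 in KMS12-BM and 1.16 in JJN3. CYCS had 287 ± 29.7 CPM with TG003 in KMS12-BM and 490 ± 5.26 CPM with DMSO (SD, n = 3 each; -0.76 in log2, adjusted p = 8.39e-06 in edgeR). Of 49 assembly factors, 16 rose and 14 fell in KMS12-BM, and 12 rose and 11 fell in JJN3. The 61.2% and 46.9% called stood beside 58.6% and 58.3% of all genes. SURF1, an assembly factor of complex IV, rose by 1.15 in KMS12-BM and 0.93 in JJN3, and COX11, which delivers copper to it, fell by 0.80 and 0.42. FMC1 and TMEM242 rose by 1.06 and 0.80 in KMS12-BM, where COA7 and COA3 fell by 0.81 and 0.56. In JJN3, COX17 and PET100 rose by 0.93 and 1.41, and UQCC5 and COX18 fell by 0.69 and 0.42. Of the transcription regulators, 3 of 15 rose and 8 fell in KMS12-BM, and 4 of 16 rose and 4 fell in JJN3. The 73.3% and 50% called stood beside 58.6% and 58.3% of all genes. Of all genes, 26.9% were higher and 31.7% lower in KMS12-BM, and 26.2% and 32.1% in JJN3. POLRMT, the mitochondrial RNA polymerase, rose by 0.92 in KMS12-BM and 1.29 in JJN3. The coactivator PPARGC1B fell by 1.04 and 0.37, and MYC by 1.01 and 0.46. NDUFA4 and other genes of these lists were not examined for near copies.

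Without drug the lines themselves differed. With DMSO, 11 of the 38 genes were higher and 13 lower in KMS12-BM than in JJN3, among 36.8% higher and 39.3% lower calls over 17772 genes. A call either way came to 63.2% of the members and 76% of all genes. Ranges were apart for 26 members, and for 78.5% of all genes. All 4 genes of complex II and all 9 of complex III had a negative log2 fold change, of which 2 and 5 were called. Of all 17772 genes, 9092 had a negative value. Complex V had 8 genes called higher and 3 lower.

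ATP5MC1 had 538, 515 and 502 CPM in KMS12-BM, against 80.0, 152 and 123 CPM in JJN3 (2.13 ± 0.22, adjusted p = 3.28e-07). ATP5MF, the membrane subunit f, averaged 300.3 ± 6.21 CPM in KMS12-BM and 110 ± 11.9 CPM in JJN3 (SD, n = 3 each; 1.45 ± 0.10, adjusted p = 4.52e-11). COX7B had 126, 197 and 278 CPM in KMS12-BM, against 74.0, 72.8 and 67.8 CPM in JJN3 (1.49 ± 0.25, adjusted p = 6.62e-05). All 3 genes were apart between the lines, COX7B with a wide spread in KMS12-BM. COX6A1 (0.75), COX5B (0.71) and ATP5F1D (0.84) were also called higher. The call of ATP5F1D was lost without KMS12-BM library 1 and without JJN3 library 1 or 3 (adjusted p of up to 0.127).

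On the lower side, UQCRH had 60.9, 60.3 and 53.3 CPM in KMS12-BM, against 206, 244 and 228 CPM in JJN3 (-1.96 ± 0.10, adjusted p = 4.24e-13). SDHA had 226, 235 and 254 CPM in KMS12-BM, against 510, 438 and 469 CPM in JJN3 (-0.99 ± 0.10, adjusted p = 1.27e-08). ATP5F1A had 875, 1077 and 985 CPM in KMS12-BM, against 1946, 1944 and 1796 CPM in JJN3 (-0.95 ± 0.08, adjusted p = 6.59e-10). The beta subunit ran the opposite way: ATP5F1B had 1730, 1871 and 1808 CPM in KMS12-BM, against 1199, 1125 and 1055 CPM in JJN3 (0.68 ± 0.08, adjusted p = 2.67e-07). ATP5PD (-1.32), ATP5PB (-1.003) and COX4I1 (-0.83) were lower as well. Of the mitochondrially encoded subunits, 5 of 6 were called higher in KMS12-BM (median 1.49).

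Of the related genes, COX7B2, the isoform of COX7B known from testis, had 8.94 ± 0.57 CPM in KMS12-BM with DMSO (SD, n = 3) and 0 reads in the 3 JJN3 DMSO libraries. Against a floor of 3 counts over the JJN3 group this is at least 274-fold higher. The coactivator PPARGC1A had 0 reads in KMS12-BM with DMSO and 1.11 ± 0.17 CPM in JJN3 (SD, n = 3), at least 44.8-fold lower against the same floor in KMS12-BM. ATPAF1 and ATPAF2, chaperones of the ATP synthase head, were lower in KMS12-BM by 1.91 and 2.03 in log2, measured as -1.91 ± 0.08 and -2.03 ± 0.10 (adjusted p = 3.49e-15 and 1.53e-13 in edgeR).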

How the data were processed

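The deposited files hold whole-number read counts per Ensembl gene, 1 file for each of the 18 libraries. Per the submitters' processing notes, the tools were cutadapt 1.4, TopHat2 2.0.11, HTSeq 0.6.1p1 and DESeq2 1.12.4, with build hg19. The sources used here do not give alignment options, annotation or strandedness, so antisense and overlapping genes cannot be told apart. The 3 deposited tables of normalized values were not used. Records in no gene (17.5% to 31.2% per library) stayed out of all library sizes.

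Counts were tested with edgeR 4.0.16 in R 4.3.3 (filterByExpr with a minimum count of 10 and a total of 15, TMM scaling, robust quasi-likelihood F tests, Benjamini-Hochberg adjustment over all genes). Drug comparisons used the 9 libraries of a line, and line comparisons and interactions all 18. A gene was called at an adjusted p under 0.05. SE is the log2 fold change divided by the square root of F, an approximation. The fit was also run on simulated counts with the same spread setting for every gene and no GC, length or placement effect. These data differ from that setting, so the simulation does not bear on the calls reported here. CPM uses TMM-scaled library sizes, and CPM of different genes were not compared. Floors and spreads cover counting error and these libraries only, since reads carry no molecular identifiers.

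The members and lists were chosen with earlier results of these data known. Named members are the up to 6 largest rises and falls per comparison, a core set of 8 genes, genes with many pseudogene reads, and, of other lists, the 3 with the smallest adjusted p in each direction. ATP5PO, ATP5MC3 and, for amiloride in KMS12-BM, UQCRFS1 and ATP5PF, and for TG003 in KMS12-BM ATP5MF, ATP5PF and UQCRFS1, were added after their values were seen. Near copies were found with BLAST+ 2.17.0. Replicates of a group differed beyond sampling noise (chi-square per degree of freedom of 8.62 to 30.9). Other alternatives were DESeq2 1.42.0, its size factors, other filters, GC and length trends, a replicate block, pseudogenes summed or removed, and left-out libraries. Adding near copies and removing pseudogenes were chosen after the data were seen.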

Additional observations from a re-analysis of the deposited data

Results flagged for a closer look

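The response to amiloride differed between the lines, by the interaction test, for 8 named genes, given as KMS12-BM minus JJN3 in log2. It was higher in KMS12-BM for UQCRH (0.42) and COX4I1 (0.37), and lower for ATP5MC1 (-1.59), UQCR11 (-1.22), UQCRC2 (-1.19), ATP5PF (-1.02), ATP5ME (-0.81) and ATP5PD (-0.80). ATP5ME rose in both lines, by 0.48 in KMS12-BM and by 1.29 in JJN3. UQCR11 had 32.1, 32.3 and 28.8 CPM with amiloride in KMS12-BM, against 45.6, 69.2 and 38.7 CPM with DMSO. In JJN3 it had 97.0, 98.3 and 91.6 CPM with amiloride, against 104, 50.3 and 49.5 CPM with DMSO, and 1 DMSO library lay with the amiloride libraries. KMS12-BM received 0.1 mM amiloride and JJN3 0.4 mM.

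For TG003 the same test called UQCRH (0.47) and ATP5F1E (-0.87). Pseudogenes of ATP5F1E held 27.3% of its summed reads in KMS12-BM with DMSO and 43.2% in JJN3 with DMSO, and UQCRHL averaged 49.1 CPM and 259 CPM in those groups. The part of these reads in the difference was not tested.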

How the results depend on the processing

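Counts of called members are given here where an alternative moved them by over 1.5 times. With a trend on GC content removed, amiloride in KMS12-BM gave 5 higher and 23 lower (2 and 15 as reported) and in JJN3 8 higher (5). Amiloride in JJN3 gave 16 higher with no low-count filter, 9 with DESeq2 and 9 with the replicate block. TG003 in JJN3 gave 18 higher with no filter and 17 with a trend on length removed (11). The amiloride interaction had 1 higher with the GC or the length trend removed (2). The TG003 interaction had 0 higher with the length trend removed (1), and 6 lower with no filter, 3 with DESeq2, 2 with the replicate block, 4 with pseudogenes summed and 2 with the length trend removed (1). Leaving out 1 library gave 4 to 9 higher for amiloride in JJN3 (9 without amiloride library 3), 1 to 7 lower for TG003 in JJN3 (1 without TG003 library 2, and 3 without DMSO library 1 or TG003 library 3), 1 to 3 higher for the amiloride interaction, and 0 to 1 higher and 0 to 2 lower for the TG003 interaction. The other counts stayed within 1.5 times. Of the called members, direction turned for COX7C with amiloride in JJN3 (pseudogenes summed, -0.024; near copies summed, -0.036), for COX8A, ATP5MF and ATP5PF with TG003 in KMS12-BM (length trend, 0.291, 0.684 and 0.258) and for UQCRH with TG003 in JJN3 (near copies summed, -0.365). Members not called as reported were called with the opposite sign under a trend correction: with the GC trend removed, CYC1 (0.355), ATP5F1D (0.803), UQCRB (-0.264) and ATP5PB (-0.26) with amiloride in KMS12-BM and SDHD (-0.234) in the amiloride interaction, and with the length trend removed, COX6B1 (0.428) with TG003 in KMS12-BM and COX8A (0.687) and ATP5MF (0.966) with TG003 in JJN3. For the GC and length trends, the filters and the tools the cause was not tested. Of 1119 values of the named members under these alternatives, 1078 kept their call, as did 687 of 774 with 1 library left out. Called values counted as kept only with the same direction. Values called in neither fit counted as kept whatever their direction. The block is the replicate number given here, the order of the title numbers within each group. No 2 libraries share a title number, and the labels state no pairing. Deviations of libraries with the same replicate number correlated between -0.074 and 0.256. All 3 pairs lay above 0.1 only between JJN3 TG003 and DMSO. Between KMS12-BM amiloride and DMSO the 3 pairs had 0.108, 0.065 and 0.059, and pairs of unlike number had at most 0.02. Between KMS12-BM amiloride and TG003 they had 0.256, 0.083 and 0.134, and pairs of unlike number had up to 0.099. For TG003 in JJN3 the block gave 12 higher and 8 lower (11 and 6), and ATP5F1A was called lower (-0.16, adjusted p = 0.0434).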
